A study of Rattus norvegicus with 35 samples.

Results

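The livers described here are all 35 of the series, sorted by how much Ugt2b transcript they held. Ugt2b, which RefSeq also lists as Ugt2b2, is one of the UDP-glucuronosyltransferases. The array carries 2 probe sets annotated to it alone, and the livers were chosen by the measured level of 1 of them, called here the class-setting probe set. A liver above 9.0 on the log2 scale was placed in the high class, a liver from 8.0 to 9.0 in the intermediate class and a liver below 5.0 in the low class. The high class held 14 livers, the intermediate class 18 and the low class 3. The comparison is of the 14 high with the 18 intermediate livers, 32 of the 35, across all other probe sets and within dose groups. The low class is described, and enters the dose test and 1 alternative fit that scores all 3 classes.

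Male rats of the Harlan Sprague Dawley stock, aged 7 weeks when dosing began, were given BTBPE or its vehicle by gavage daily for 5 days. The vehicle group had corn oil alone (6 rats). BTBPE in corn oil was given at 0.07 mg/kg, 0.69 mg/kg and 6.88 mg/kg to 6 rats each, at 68 mg/kg to 5 and at 680 mg/kg to 6. BTBPE is 1,2-bis(2,4,6-tribromophenoxy)ethane, a brominated flame retardant. Left-lobe liver taken on the day after the last dose was hybridised to 1 Affymetrix rat expression array per rat, and the deposited values are log2 expression per probe set. All rats were of 1 sex and 1 outbred stock, and no genotype was given for any of them.

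Glucuronosyltransferases of the endoplasmic reticulum join glucuronic acid, taken from UDP-glucuronic acid, to steroids, bile acids, bilirubin and drugs, which makes them soluble enough for bile or urine. In rats the UGT2B enzymes are encoded by a row of similar genes on chromosome 14 and handle mainly steroids and drugs, whereas the UGT1A enzymes share the last exons of 1 gene locus and include the bilirubin enzyme. The product of rat Ugt2b is known as an enzyme of androsterone conjugation, and individual rats of some outbred stocks are known to differ by inheritance in that activity. Whether the classes seen here are inherited was not tested.

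The 35 livers fell into 3 separate ranges of Ugt2b. The class-setting probe set ran from 9.14 to 9.58 in the high class, with a median of 9.43, and from 8.23 to 8.73 in the intermediate class, with a median of 8.56. The 3 low livers read 2.27, 2.28 and 2.85, far below the lowest array median of 4.71, so signal above background was not shown. The nearest values on either side of the limit of 9.0 were 9.14 and 8.73, and no liver lay within 0.1 of it. No liver lay between 2.85 and 8.23. These values chose the classes, so the mean difference of 0.89 between the high and intermediate classes carries no test.

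The classes cut across the doses. In vehicle rats the high livers read 9.19 and 9.31, the intermediate livers 8.54, 8.64 and 8.73, and the low liver 2.85. At 0.07 mg/kg 1 liver was high, at 9.41, and the intermediate livers read 8.24, 8.28, 8.32, 8.58 and 8.68. At 0.69 mg/kg the high livers read 9.36, 9.44, 9.53 and 9.58, the intermediate liver 8.57 and the low liver 2.27. So every class was present among rats that received no BTBPE, and the mix of classes differed between groups of so few rats. At 6.88 mg/kg the high livers read 9.14 and 9.55, the intermediate livers 8.65, 8.68 and 8.72, and the low liver 2.28. At 68 mg/kg the high livers read 9.25 and 9.47 and the intermediate livers 8.23, 8.36 and 8.59. At 680 mg/kg the high livers read 9.42, 9.52 and 9.54 and the intermediate livers 8.40, 8.50 and 8.56. Without the low livers the class-setting probe set averaged 8.88 in vehicle rats and 8.59, 9.30, 8.95, 8.78 and 8.99 at 0.07, 0.69, 6.88, 68 and 680 mg/kg, with SDs between 0.35 and 0.56. The doses were not shown to differ: limma's moderated F over the 5 doses against vehicle was 1.70 without the low livers (unadjusted p = 0.164, adjusted p = 1.00). For the other Ugt2b probe set it was 2.12 (limma unadjusted p = 0.0887). The low livers were left out by their value on the class-setting probe set itself. With all 35 livers the F of the class-setting probe set was 0.42 (limma unadjusted p = 0.833, adjusted p = 1.00). There the 3 low livers raised the SD of their groups to between 2.48 and 2.89, so that fit could register only a large difference. limma called 0 of 31042 probe sets in the test over all 35 livers.

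**Figure D1:**
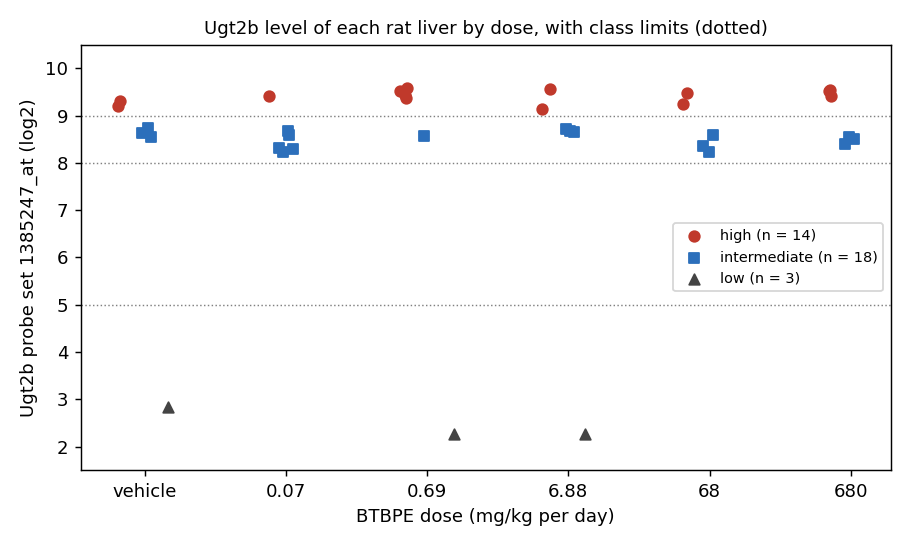
Log2 expression of the class-setting Ugt2b probe set (vertical axis) in each liver, by daily BTBPE dose in mg/kg (horizontal axis). Each point is 1 rat, red circles are the 14 high, blue squares the 18 intermediate and grey triangles the 3 low livers, and dotted lines mark 9.0, 8.0 and 5.0. High and intermediate livers occur at every dose and in vehicle rats, and the 3 low livers belong to the vehicle, 0.69 and 6.88 mg/kg groups.

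The second Ugt2b probe set kept the same 3 classes apart. It ran from 12.63 to 12.84 in the high class (median 12.72) and from 12.24 to 12.54 in the intermediate class (median 12.42). The low livers read 4.34, 4.57 and 4.97. Every high liver lay above every intermediate liver, and no other of the 31041 probe sets set beside the classes separated them in this way (0.00322%). The difference between the high and intermediate classes was 0.28 ± 0.03 (log2, SE of the fit), a 1.22-fold level with a 95% confidence interval of 1.16 to 1.27, and it was the only call of limma's moderated test (adjusted p = 1.65e-05). It is the same gene measured a second time, so it shows that both probe sets separate the classes and is no separate finding.

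The difference held in every group, at 0.28 in vehicle rats and 0.25, 0.29, 0.22, 0.35 and 0.29 at 0.07, 0.69, 6.88, 68 and 680 mg/kg. Its size in rats given BTBPE minus that in vehicle rats was 0.00 ± 0.08 (log2, SE; limma adjusted p = 1.00). The probe sets differed in how far the classes lie apart. The class means differed by 0.89 on the class-setting probe set, whose values chose the classes. On the second Ugt2b probe set they differed by 0.30 without dose group terms and by 0.28 in the fit with them. Within a class their Pearson correlation was 0.48 across the 14 high livers and 0.32 across the 18 intermediate livers. The classes were cut on 1 of the 2 probe sets, which narrows its range within a class and lowers such a correlation. Over the 32 livers of both classes, after subtraction of group means, the correlation was 0.90. These are descriptions over livers that share an array and its normalisation for both probe sets. In bulk liver, fewer cells with the transcript and less transcript per cell cannot be told apart.

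**Figure D2:**
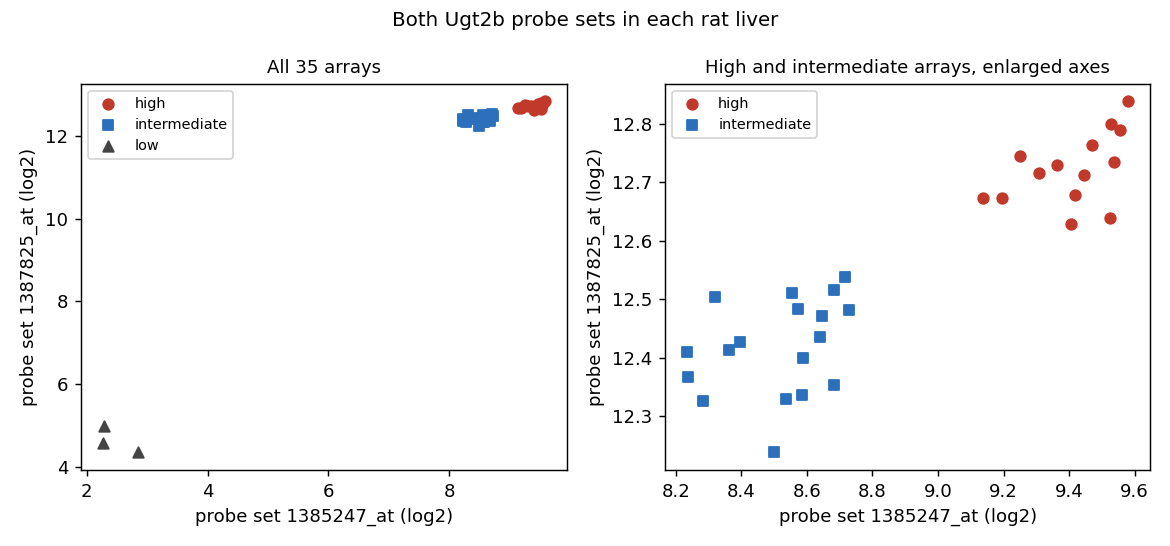
Log2 expression of the second Ugt2b probe set (vertical axis) against the class-setting probe set (horizontal axis), 1 point per liver, for all 35 livers on the left and for the high and intermediate livers with enlarged axes on the right. The 14 high livers (red circles) lie at 12.63 or above on the vertical axis, the 18 intermediate livers (blue squares) at 12.54 or below, and the 3 low livers (grey triangles) at 4.97 or below.

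The reference sequence just before the start of Ugt2b is shown beside that of Ugt2b15, a neighbour of like sequence that did not follow the classes, and of Ugt2b1, the neighbour of the same family that came nearest to following them. Each is the 250 bases before the annotated start, 5′ to 3′, and capitals mark a match to CAAGTTATANTT. The sequences are those of the reference assembly and not of the rats measured here.
Ugt2b, RefSeq GRCr8 chr14:20985199-20985448, plus strand: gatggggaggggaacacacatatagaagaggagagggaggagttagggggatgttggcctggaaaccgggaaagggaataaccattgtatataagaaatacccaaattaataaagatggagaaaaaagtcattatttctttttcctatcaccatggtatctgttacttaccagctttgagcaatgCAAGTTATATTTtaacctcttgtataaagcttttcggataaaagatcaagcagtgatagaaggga
Ugt2b15, RefSeq GRCr8 chr14:21122616-21122865, plus strand: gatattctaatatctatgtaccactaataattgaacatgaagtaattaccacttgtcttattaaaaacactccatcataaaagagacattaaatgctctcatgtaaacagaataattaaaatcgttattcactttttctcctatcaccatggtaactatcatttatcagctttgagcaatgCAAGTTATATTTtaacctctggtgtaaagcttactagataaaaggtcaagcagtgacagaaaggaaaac
Ugt2b1, RefSeq GRCr8 chr14:21378632-21378881, plus strand: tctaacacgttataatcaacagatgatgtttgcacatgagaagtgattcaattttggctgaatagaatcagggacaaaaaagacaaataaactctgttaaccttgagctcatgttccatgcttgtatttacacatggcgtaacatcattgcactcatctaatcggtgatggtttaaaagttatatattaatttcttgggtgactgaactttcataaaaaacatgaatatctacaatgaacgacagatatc
The motif was picked by count: of all 12-base patterns in the Ugt2b window with 1 free base (N), it is among those found in most Ugt2b-family windows, and of these it is in the fewest windows of all genes. Searched on both strands, it was found in 7 of the 9 family windows and in 9 of all 33469 windows of this length (0.0269%). The choice itself favours the first count and keeps the second low, and the second includes the 7 family windows. The motif began 65 bases before the start in Ugt2b and 69 in Ugt2b15, and the Ugt2b1 window did not hold these letters. The longest run of identical bases that Ugt2b shares with Ugt2b15 is 35 bases, and with Ugt2b1 it is 9. A match is a run of letters and not a measured binding site.

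Across all other probe sets the high and intermediate classes were hardly distinguishable. Apart from the second Ugt2b probe set, limma called 0 of them, with a smallest adjusted p of 0.299. Unadjusted p was under 0.05 for 1203 of 31041 (3.88%), where 1552 would lie there by chance, with 599 higher (1.93%) and 604 lower (1.95%). The median difference over all probe sets was 0.00 and the median size 0.04 on the log2 scale. The analysis of simulated livers, with 50 probe sets changed at each size, recovered 74.0% of changes of 0.3, 38.0% of 0.2 and 4% of 0.1. It made 110 calls against 1 in the measured livers, which makes its adjusted threshold easier to pass. These shares thus overstate recovery in the measured livers, where differences of 0.3 or less could have been missed.

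Among the other glucuronosyltransferases, Ugt2b1 stood nearest to a graded pattern. Ugt2b1 encodes an enzyme that conjugates morphine and other drugs in rat liver. It ran from 11.64 to 12.09 in the high class (median 11.93) and from 11.40 to 11.97 in the intermediate class (median 11.64), and the low livers read 11.24, 11.30 and 11.48. The classes overlapped, yet all 14 high livers lay above the intermediate median and 2 of the 3 low livers lay below every intermediate liver. The high class was 0.24 ± 0.06 above the intermediate class (log2, SE), 1.18-fold with an interval of 1.09 to 1.27, at an unadjusted p of 0.000162. It missed the threshold over all probe sets (limma adjusted p = 0.717).

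The Ugt2b1 difference was above 0 in 6 of 6 groups, at 0.16 in vehicle rats and 0.39, 0.52, 0.27, 0.09 and 0.15 from 0.07 to 680 mg/kg. The values of 0.39 and 0.52 rest on 1 high liver at 0.07 mg/kg and 1 intermediate liver at 0.69 mg/kg. Of all probe sets 1.23% were higher in 6 of 6 groups and 1.48% lower. With the low livers included and the classes scored from 0 to 2, Ugt2b1 changed by 0.26 per class and was called (limma adjusted p = 0.00610). That alternative fit treats the 2 steps between classes as equal, which they were not on the class-setting probe set. It does not replace the main test. Probe sequences were not used here, so whether Ugt2b transcript binds the Ugt2b1 probes was not tested.

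Ugt2a1, best known from olfactory tissue, and Ugt2b34l1 moved in opposite directions without passing the test. Ugt2a1 ran from 5.10 to 5.43 in the high class (median 5.25) and from 4.84 to 5.28 in the intermediate class (median 5.09), with low livers at 4.74, 5.11 and 5.12. The difference was 0.13 ± 0.04 (log2, SE; interval 0.05 to 0.22; unadjusted p = 0.00356, limma adjusted p = 1.00), above 0 on the log2 scale in 6 of 6 groups. Ugt2b34l1 ran from 4.80 to 5.72 in the high class (median 5.24) and from 4.96 to 5.91 in the intermediate class (median 5.50). Its fold value was 0.849 (interval 0.745 to 0.969; unadjusted p = 0.0166, limma adjusted p = 1.00), and 13 of the 14 high livers lay below the intermediate median. The log2 difference was -0.39 in vehicle rats and -0.03, -0.78, -0.29, 0.01 and -0.08 from 0.07 to 680 mg/kg. The value of -0.78, at 0.69 mg/kg, rests on 1 intermediate liver, the highest of its class at 5.91. The low livers, at 5.35, 5.53 and 5.53, lay within the intermediate range, so this probe set was not graded over the 3 classes.

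The other strongly expressed members did not follow Ugt2b beyond their intervals. Ugt2b35 averaged 12.84 ± 0.04 (SD, n = 14) in the high class and 12.81 ± 0.05 (SD, n = 18) in the intermediate class, 1.02-fold with an interval of 0.979 to 1.06. Ugt2b15 averaged 11.78 ± 0.13 in the high class and 11.71 ± 0.11 in the intermediate class, a difference of 0.05 (log2, interval -0.05 to 0.14). Ugt2b10 averaged 10.08 ± 0.09 in the high class and 10.08 ± 0.07 in the intermediate class, 0.998-fold (0.950 to 1.05). In the low livers Ugt2b35 read between 12.73 and 12.74, Ugt2b15 between 11.57 and 11.78 and Ugt2b10 between 10.19 and 10.32. The near absence of Ugt2b signal was thus not shared by these 3 probe sets. Ugt2b7, at 4.33 ± 0.26 in the high class and 4.14 ± 0.24 in the intermediate class, and both Ugt8 probe sets lay below the lowest array median of 4.71, where signal above background was not shown.

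The UGT1A enzymes were read by 2 probe sets that each match several Ugt1a genes. The first averaged 12.39 ± 0.08 in the high class and 12.42 ± 0.08 in the intermediate class, 0.986-fold (interval 0.938 to 1.04). The second averaged 11.60 ± 0.08 in the high class and 11.63 ± 0.11 in the intermediate class, 0.989-fold (0.933 to 1.05). The low livers read 12.42, 12.48 and 12.58 on the first and 11.71, 11.72 and 11.84 on the second, within the intermediate range for the first and partly above it for the second, whose highest intermediate liver read 11.75. Of the 12 probe sets with a Ugt symbol other than the class-setting probe set, limma called 1, against 0.00322% of all probe sets. That 1 is the second Ugt2b probe set, a second reading of the gene that set the classes, so the count says nothing about the other members. The 12 were grouped by symbol and not by known activity, and include both Ugt8 probe sets.

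**Figure D3:**
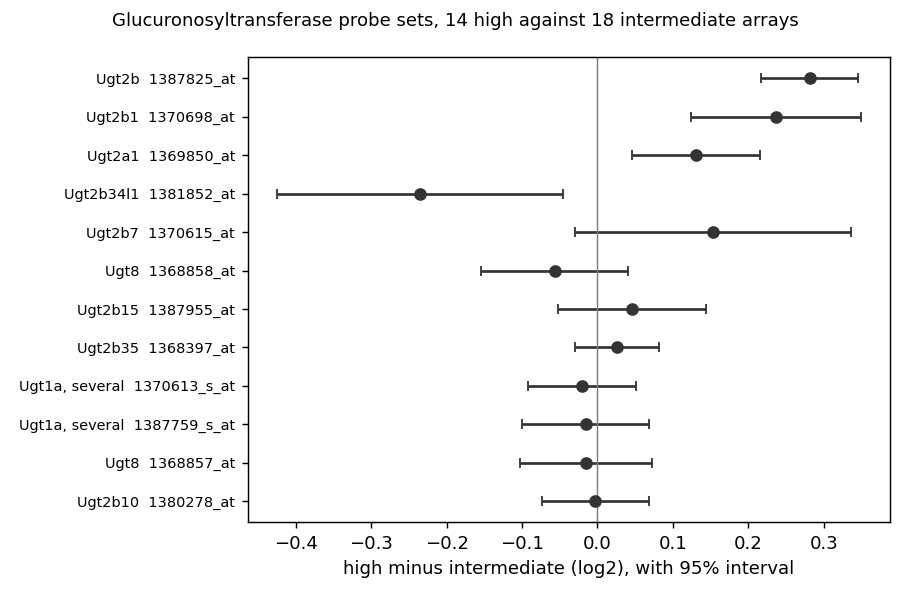
Difference between the 14 high and 18 intermediate livers (horizontal axis, high minus intermediate, log2) for the 12 probe sets with a Ugt symbol other than the one that set the classes, with 95% intervals of the fit as bars. The second Ugt2b probe set lies at 0.28 and Ugt2b1 at 0.24, Ugt2b34l1 at -0.24, and the probe sets from Ugt2b7 downward have intervals that include 0.

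Genes that lie beside Ugt2b were examined next. In the RefSeq order of chromosome 14, 16 of the 50 nearest genes, 25 on each side, had a probe set of their own. limma called 0 of them. Unadjusted p was under 0.05 for 5 of the 16 (31.3%, against 3.88% of all probe sets), 3 higher and 2 lower, and these were Sult1e1, Sult1b1, Ugt2a1, Ugt2b1 and Ugt2b34l1. Of the 9 neighbours with a mean above the lowest array median 5 lay there, against 3.04% of all probe sets that bright. The median difference of the 16 was 0.02 and their median size 0.044, against a median size of 0.035 over all probe sets. The medians of the 16 include the neighbours below the lowest array median. Over the whole chromosome the count was 33 of 684 (4.82%), the highest share of any chromosome, just above X at 4.70%. This count includes the second Ugt2b probe set and the 5 neighbours named above, so the first rank is no separate finding.

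Sult1e1, the oestrogen sulfotransferase, went the opposite way to Ugt2b. It lies 9 places before Ugt2b in the gene order. It ran from 12.63 to 12.93 in the high class (median 12.74) and from 12.75 to 13.08 in the intermediate class (median 12.93), and the low livers read 12.94, 12.97 and 12.99. Of the 14 high livers 13 lay below the intermediate median, although the ranges overlapped, and the low livers lay within the intermediate range. Its fold value was 0.881 (interval 0.835 to 0.930) at an unadjusted p of 4.22e-05, below 0 on the log2 scale in 6 of 6 groups. It missed the threshold (limma adjusted p = 0.313), except with an intensity trend and robust prior, where the adjusted p was 0.0312.

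The groups differed in the size of the Sult1e1 value, from -0.06 at 68 mg/kg to -0.30 at 680 mg/kg, with -0.18 in vehicle rats. Sult1b1, a sulfotransferase of thyroid hormones and phenols, lies 7 places before Ugt2b and is named because of its value. It averaged 12.32 ± 0.06 in the high class and 12.21 ± 0.08 in the intermediate class, 1.07-fold (interval 1.02 to 1.12; limma adjusted p = 1.00), and the low livers read 11.995, 12.14 and 12.20. Sult1d1, which lies between them, read 1.95 in both classes, below the lowest array median. The casein genes of the same stretch, Csn3, Csn2 and Csn1s1, which serve milk secretion, likewise averaged between 2.52 and 3.31 in both classes; Sult1d1 and these 3 are named after their values were seen.

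**Figure D4:**
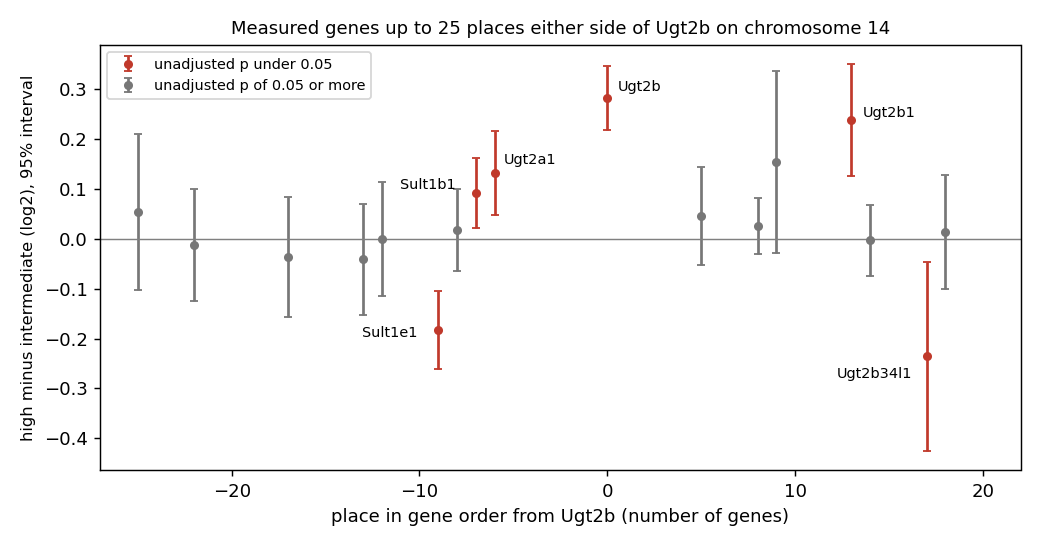
Difference between the 14 high and 18 intermediate livers (vertical axis, high minus intermediate, log2, with 95% intervals of the fit) for the second Ugt2b probe set and the 16 measured neighbours, by place in the gene order of chromosome 14 from Ugt2b (horizontal axis, number of genes). Red points have an unadjusted p under 0.05 and are named. Sult1e1 lies at -0.18, Ugt2b34l1 at -0.24 and Ugt2b1 at 0.24.

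**Figure D5:**
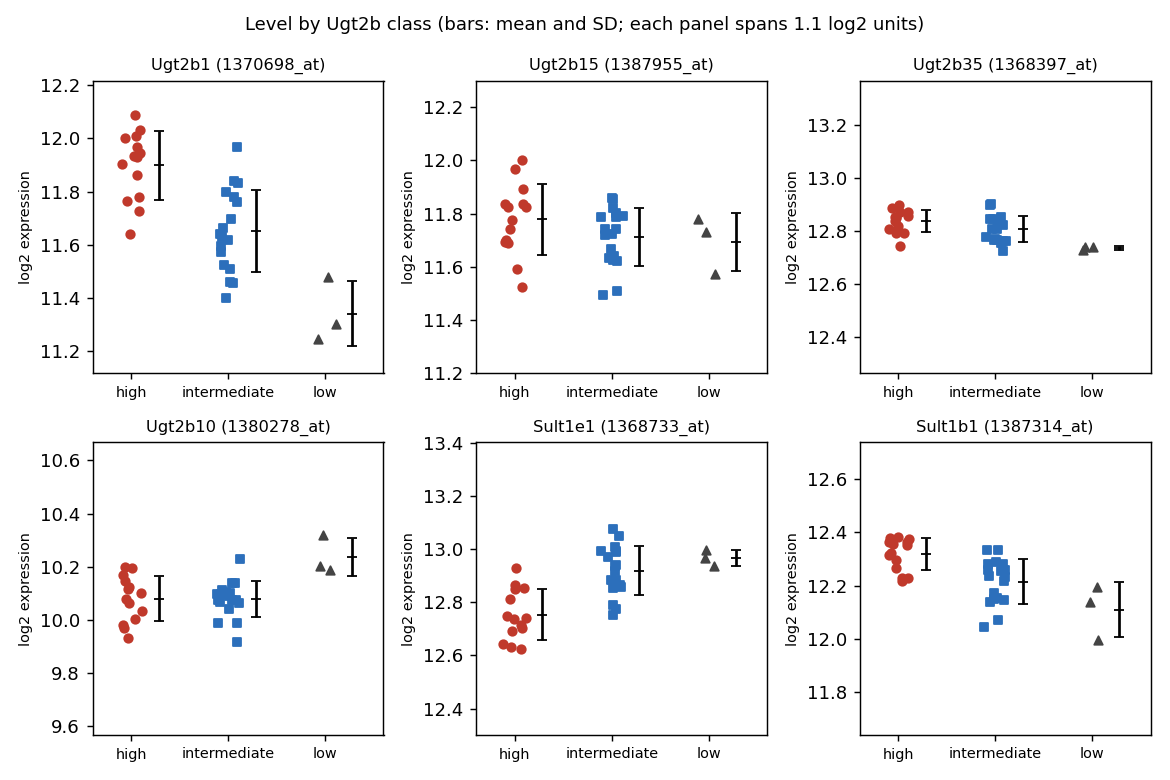
Log2 expression of 6 genes near Ugt2b on chromosome 14 by Ugt2b class, 1 point per liver, with bars for the mean and SD of the 14 high, 18 intermediate and 3 low livers. Every panel spans the same height. Ugt2b1 has class means of 11.90, 11.65 and 11.34 in high, intermediate and low livers, while the means of Ugt2b15 are 11.78, 11.71 and 11.69.

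The likeness of other transcripts to the class-setting probe set was measured as a Pearson correlation across livers after subtraction of each group mean, a description with no test. Over all 35 livers the second Ugt2b probe set came first (r = 0.98), followed by P2ry14 (0.78), Rhog (0.75) and Akr1b1 (0.69). P2ry14 encodes a receptor for UDP-sugars, Rhog a small GTPase and Akr1b1 an aldose reductase. Smtnl2, Tmco3 and Thbd, the last encoding thrombomodulin of vessel walls, had values between 0.65 and 0.66, and a probe set with several symbols and 2 without a symbol had values between 0.66 and 0.68. On the opposite side stood a probe set without a symbol at -0.75, Furin, a protease that matures other proteins, at -0.72, and Rbms2 at -0.70.

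Those correlations were set largely by the 3 low livers. Over the 32 high and intermediate livers the second Ugt2b probe set still came first (r = 0.90), but P2ry14 had 0.43 and rank 274, Rhog 0.07, Akr1b1 -0.04 and Furin -0.02. P2ry14 read 6.46, 6.75 and 6.86 in the low livers, below the lowest intermediate liver at 6.90. It averaged 7.14 ± 0.11 in the high class and 7.05 ± 0.08 in the intermediate class, 1.06-fold (interval 0.998 to 1.12; limma adjusted p = 1.00). Ugt2b1 had a correlation of 0.65 over all 35 livers and 0.56 over the 32, and Ugt2a1 had 0.54 in both. Other family members did not keep theirs: Ugt2b35 went from 0.56 to 0.15 and Ugt2b10 from -0.52 to 0.05.

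The 3 low livers were described on their own account. The actin 3 prime minus 5 prime value, a measure of RNA quality, was 1.19, 1.27 and 1.37 in them, against 1.04 to 1.28 in high and 1.02 to 1.31 in intermediate livers, and its part in their other values was not tested. Of all 31041 probe sets 3 had a low class mean at least 1 log2 unit below the intermediate mean (0.00966%), the second Ugt2b probe set among them, and 3 had one at least 1 unit above it (0.00966%). The following are named because of their values. A probe set with several symbols read 2.93, 3.12 and 10.90 in low livers, against 2.89 to 10.96 in high and 3.73 to 11.01 in intermediate livers, so all classes spanned nearly the same range. A probe set without a symbol read 6.32, 6.36 and 6.38 in low livers, above every intermediate liver, the highest of which read 6.25. Prlr, the prolactin receptor, read 3.87, 4.80 and 5.32 in low livers, 1.28 below the intermediate mean of 5.95. Bcl6, a transcriptional repressor, read 8.64, 9.32 and 9.64 in low livers, against an intermediate mean of 7.96 and a high class range of 5.35 to 10.20. Prlr and Bcl6 lay at least partly within the range of the other livers, and the low livers were all below every intermediate liver for 0.206% of the 31041 probe sets.

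Pathways around glucuronidation were then counted between the high and intermediate classes, where 49.7% of all probe sets were higher and 0.00322% were called. limma called 0 members of any list. Of the genes that supply UDP-glucuronic acid or handle glucuronides 1 of 6 was higher, Abcc3, an exporter of glucuronides, at 4.90 in high and 4.83 in intermediate livers. Ugp2, which makes UDP-glucose, averaged 11.46 in high and 11.51 in intermediate livers. Of steroid and androgen genes 5 of 13 were higher, and Sult1e1 was the only 1 with an unadjusted p under 0.05. Sex-dependent liver genes were higher for 2 of 13, with Cish, a feedback inhibitor of growth hormone signalling, at 4.65 in high and 5.16 in intermediate livers (limma adjusted p = 1.00). These lists had medians of -0.01, -0.03 and -0.04 on the log2 scale, against 0.00 over all probe sets.

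The receptor-controlled lists gave no call either. CAR and PXR targets were higher for 4 of 16 (median -0.05), among them the drug-oxidising enzyme Cyp3a23-3a1 at 12.21 in high and 12.35 in intermediate livers (limma adjusted p = 1.00). AhR targets were higher for 3 of 8 (median -0.03) and NRF2 targets for 8 of 11 (median 0.02). Of the 8 AhR targets 5 lay below the lowest array median, where signal above background was not shown. Nqo1, a quinone reductase on both lists, averaged 6.82 in high and 6.98 in intermediate livers. Going the other way, Ahrr of the AhR list averaged 3.37 in high and 3.21 in intermediate livers. Slc7a11 of the NRF2 list averaged 3.70 in high and 3.52 in intermediate livers, and both genes lay below the lowest array median of 4.71. The Nqo1 difference of -0.27 in the fit was -0.13 without replicate 6 at 680 mg/kg, an intermediate liver that read 8.87. Bile acid genes were higher for 8 of 14 (median 0.00), with Cyp8b1, a sterol hydroxylase, at 10.53 in high and 10.42 in intermediate livers. Thyroid hormone genes were higher for 5 of 7 (median 0.01), with the thyroid hormone receptor gene Thrb at 8.60 in high and 8.57 in intermediate livers. Cyp3a23-3a1, Ahrr, Nqo1 and Cyp8b1 had unadjusted p between 0.0200 and 0.0436.

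Markers of cell types were compared in the same way. Hepatocyte markers were strongly expressed in every liver, with a mean log2 level of 13.3 to 13.4 in each class, and 5 of 6 were higher in the high class. Macrophage markers were higher for 2 of 8, stellate cell and fibroblast markers for 6 of 9, endothelial markers for 3 of 7, cholangiocyte markers for 1 of 5, lymphocyte markers for 6 of 9, blood and neutrophil markers for 5 of 5, and markers of pancreas, kidney and adrenal for 3 of 10. limma called 0 of these. The median differences were 0.01 for hepatocyte, -0.05 for macrophage, 0.01 for stellate cell and fibroblast, -0.04 for endothelial, -0.05 for cholangiocyte and 0.04 for lymphocyte markers, and -0.03 for markers of pancreas, kidney and adrenal. Blood and neutrophil markers had the largest median of the 16 lists, 0.15 on the log2 scale against 0.00 over all probe sets, with S100a9 of neutrophils at 5.60 in high and 5.41 in intermediate livers and the haemoglobin gene Hbb at 11.86 in high and 11.71 in intermediate livers (limma adjusted p = 1.00 for both). Its part in the other differences was not tested. The mean level of the blood and neutrophil list ran from 6.38 to 6.74 in high and from 6.18 to 6.82 in intermediate livers, so the ranges overlapped. The mean level of the macrophage list ran from 7.38 to 8.56 in high, from 7.56 to 8.39 in intermediate and from 7.38 to 7.80 in low livers.

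Whether the class difference itself differed between rats given BTBPE and vehicle rats was tested last. limma called 0 of 31041 probe sets, with a smallest adjusted p of 0.0714 and 1179 at an unadjusted p under 0.05. With 2 high and 3 intermediate vehicle livers, only large differences could be seen. For Ugt2b1 the difference between both contrasts was 0.09 ± 0.15 (log2, SE) and for Sult1e1 it was -0.01 ± 0.10 (limma adjusted p = 1.00 for both).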

How the data were processed

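The authors deposited log2 expression values, made by RMA with affy per the submitters' processing notes (its version was not stated). The lowest was 1.45, the highest 14.44 and array medians lay between 4.71 and 4.79; that the base is 2 is taken from RMA's convention. RMA makes the distributions of all arrays alike and compresses dim differences. The number of arrays limits the precision. Per the labels' protocols RNA had an integrity number of at least 7.0. Each sample was counted as 1 rat, so p-values measure the spread between these samples.

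Of 31099 listed probe sets 57 controls and the class-setting probe set were left out and 31041 tested, without a filter on dim signals. Symbols came from the platform annotation, updated through RefSeq (GRCr8): 20826 had 1 symbol, of which 20758 matched by gene identifier and 2 by accession, 436 had several and 9780 none. A gene was represented by its probe set with the highest mean. limma 3.58.1 in R 4.3.3 fitted the high term with dose group as a factor to 32 arrays, with Benjamini-Hochberg adjustment at 0.05. It stood in place of R/maanova, which the series' design text names and which was not run. The fit was tested on simulated data for 31041 probe sets: 4 of 110 calls were false. Promoter windows were credited to RefSeq for the 9 Ugt2b-family genes with an entry, and motif searches used Python 3.11.15.

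Named by rule were all glucuronosyltransferase probe sets, every called probe set and the 10 most and 3 least correlated with the class-setting probe set. Probe sets were counted as glucuronosyltransferases by a symbol that starts with Ugt1, Ugt2, Ugt3 or Ugt8, not by known activity. Those with several symbols or none are given without a name. For each list the rule allowed the called members or the 2 with the smallest p, and the text names a selection of these. Genes outside the rule are said to be named for their values. Levels below 4.71 are given as values. The classes, members and lists were chosen with earlier results of these data known. No sample was dropped or imputed, 0 pairs of arrays were identical, and replicate numbers were not treated as pairs.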

Additional observations from a re-analysis of the deposited data

Results flagged for a closer look

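Livers far from the others of their dose group were looked for in the 13 probe sets with a Ugt symbol and 6 dose groups, 78 sets of 5 or 6 livers in all, where chance alone marks about 1 in 20. 10 were marked, but 6 of the marks are the 3 low livers on the 2 Ugt2b probe sets. These 6 restate how the classes were set, so the count cannot be read against chance. On the class-setting Ugt2b probe set vehicle replicate 3 read 2.85, replicate 5 at 0.69 mg/kg read 2.27 and replicate 2 at 6.88 mg/kg read 2.28, each far below the next liver of its group at 8.54, 8.57 and 8.65. On the second Ugt2b probe set the same livers read 4.34, 4.57 and 4.97, with the next livers at 12.33, 12.48 and 12.47.

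The same replicate 2 at 6.88 mg/kg was the lowest of its group for Ugt2a1, at 4.74 against 5.11 for the next liver. The remaining livers belong to the other classes. Replicate 5 at 68 mg/kg read 2.36 for Ugt8, below 2.605 for the next liver and below the lowest array median. Replicate 6 at 0.07 mg/kg read 12.23 for the first Ugt1a probe set, below 12.41. Replicate 3 at 680 mg/kg read 4.70 for Ugt2b7, above 4.16.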

How the results depend on the processing

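The second Ugt2b probe set kept its direction in all 45 alternatives (32 that leave out 1 liver and 13 others) and was called in 44, and no named probe set changed sign together with a call. Replicate numbers do not pair the rats: same-numbered livers of different groups had a mean correlation of -0.01 over 85 pairs, 8 of them over 0.1, and 5 of 35 livers correlated best with their own number. With the replicate block the test called 0 probe sets, 0 higher and 0 glucuronosyltransferases, with an adjusted p of 0.0505 and a difference of 0.27 for the second Ugt2b probe set, and 3 of the 16 neighbours in place of 5 had an unadjusted p under 0.05. The block called 0 in the contrast of dosed with vehicle rats and changed no call for dose. 2 probe sets in place of 1 were called by an intensity trend and robust prior (Sult1e1 added, 1 lower), by the unmoderated analysis of variance (Stx8 added, 2 higher) and by the class score over all 35 livers (Ugt2b1 added, 2 higher, 2 glucuronosyltransferases). Leaving out 1 liver gave 1 to 2 calls, 1 to 2 higher, 0 lower, 1 glucuronosyltransferase and 4 to 6 neighbours. The second call, without replicate 2 at 68 mg/kg, was a probe set of Nrg1 that averaged 3.83 in high and 3.57 in intermediate livers. The counts of neighbours were examined after the data had been seen, and the alternative without livers near 9.0 was not run because no liver lies there. The cause of these changes was not tested.

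Of the 2454 values of named probe sets under these alternatives 2347 kept direction and side of the threshold, and 104 changed sign without a call. Signals near or below the array medians, among them the low livers' Ugt2b, Ugt2b7 and Ugt8, bound what these arrays can show.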
